A study of Mus musculus with 4 samples.

Results

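Axon guidance ligands and receptors are the cell-surface and secreted proteins by which growing axons are attracted or repelled. The set described here holds 67 genes of 25744 genes that could be named in the deposited tables. It was defined by gene name and not by a cut on measured values, although earlier results of these data were known. It takes in the numbered Eph receptors and ephrins, the numbered semaphorins, the plexins, Nrp1 and Nrp2, Slit1 to Slit3, Robo1 to Robo4, Ntn1, Ntn4, Unc5a to Unc5d and Dcc. RNA was sequenced from stromal cells of adult C57BL/6 mouse prostate, sorted as negative for lineage markers, CD24 and CD49f and as positive for Sca-1. Proximal samples (2 libraries) came from the proximal prostatic ducts, which lie next to the urethra, and distal samples (2 libraries) from the duct ends away from it. The labels name no genetic change and no treatment, so the groups differ by the dissected region. Libraries are numbered 2 and 3 in both regions, and values of a proximal or distal pair are given with number 2 first. The stated purpose was to identify signalling. The labels do not give the animals behind each library, separate or pooled, so p-values reflect the spread of these libraries alone, and that spread may be technical.

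Eph receptors are tyrosine kinases that bind ephrins on a neighbouring cell. A-type ephrins are held in the membrane by a lipid anchor and B-type ephrins span it, and contact can signal into both cells. Semaphorins act through plexins, and the secreted class 3 semaphorins mostly need a neuropilin as co-receptor. Slit proteins are secreted ligands of Robo receptors, and netrins are laminin-like secreted proteins read by Dcc, neogenin and the Unc5 receptors. Outside the nervous system these families guide vessels, keep cell populations apart and shape branching epithelia.

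Values are FPKM (fragments per kilobase of transcript, scaled to the mapped fragments), estimated by the authors per transcript and summed here per gene, so levels of different genes can be set side by side. Per library 10148 to 11455 genes had 1 FPKM or more. Of 10 fibroblast markers, 10 reached 1 FPKM, Dcn holding the largest part of summed levels of 6086 and 5989 FPKM in the proximal pair and 5747 and 4851 FPKM in the distal pair. Of the 10, Dcn lay above and Dpp4 and Ly6a below in both proximal libraries, and the other 7 overlapped. Epithelial RNA was uneven: 10 epithelial markers summed to 74.02 and 525.0 FPKM in the proximal pair and to 43.6 and 117.9 FPKM in the distal pair, and 9 of the 10 reached 1 FPKM. Proximal minus distal, all 9 differences were positive (60.4% over all tested genes). Their median was 1.09 on the log2(FPKM + 1) scale, against 0.09 over all genes. Krt19 alone separated, at 22.05 and 155.8 FPKM in the proximal pair, against 7.93 and 15.16 FPKM in the distal pair. The 10 endothelial markers summed to between 9.37 FPKM (distal 3) and 10.64 FPKM (distal 2), with Erg at or under 0.0113 FPKM. The 10 Schwann cell and neuron markers summed to 3.55 and 6.01 FPKM in the proximal pair and 6.60 and 7.17 FPKM in the distal pair, mostly from Tubb3 and Prph, and Th was at 0 in every library. The 10 leukocyte markers summed to between 7.71 and 11.46 FPKM, both in the proximal pair, with Cd3e at 0 in every library. The 10 smooth muscle and pericyte markers summed to 213.1 and 141.8 FPKM in the proximal pair and 226.7 and 172.5 FPKM in the distal pair. Of the 7 tested, Myh11 lay above in both proximal libraries (12.33 and 5.321 FPKM, against 5.113 and 2.795 FPKM in the distal pair). Cspg4 (7.252 and 7.728 FPKM, against 15.05 and 17.65 FPKM) and Actg2 (3.421 and 0.862 FPKM, against 6.868 and 3.816 FPKM) lay below, and the others overlapped. The 7 urothelial and seminal vesicle markers summed to 8.43 and 6.71 FPKM in the proximal pair and to 2.38 and 3.03 FPKM in the distal pair, mostly from Upk1a and Upk1b, the 2 of the 7 that reached 1 FPKM, while Upk2, Upk3a, Svs2 and Svs5 were at 0 in both distal libraries. The urothelial sum was thus higher, and the Schwann cell and neuron sum lower, in the proximal pair, while the epithelial sums overlapped. The part of these cell types in the results below was not tested. In sorted bulk samples fewer cells of a type and less RNA per cell cannot be told apart.

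Promoter sequences are shown for Epha3 and Efna1, the receptor and the ligand with the largest difference on the log2(FPKM + 1) scale among tested genes, and for Sema4c, whose deposited transcripts begin at 2 separate starts. Each run is the 250 bases before a RefSeq transcript start (GRCm38.p6, all on the minus strand), written 5′ to 3′, with capitals marking the GC box GGGCGG or its reverse complement. Of the starts of Efna1 and Sema4c, start A lies downstream and start B upstream.
Epha3: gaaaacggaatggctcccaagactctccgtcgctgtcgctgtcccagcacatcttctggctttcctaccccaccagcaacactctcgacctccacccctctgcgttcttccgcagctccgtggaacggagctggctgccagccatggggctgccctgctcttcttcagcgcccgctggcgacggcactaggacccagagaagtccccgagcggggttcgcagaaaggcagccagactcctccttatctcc
Efna1 start A: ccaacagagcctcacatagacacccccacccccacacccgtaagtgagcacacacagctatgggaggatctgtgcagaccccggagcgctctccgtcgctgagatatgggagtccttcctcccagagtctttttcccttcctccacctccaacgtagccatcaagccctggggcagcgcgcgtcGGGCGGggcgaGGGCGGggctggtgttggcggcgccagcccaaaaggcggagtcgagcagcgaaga
Efna1 start B: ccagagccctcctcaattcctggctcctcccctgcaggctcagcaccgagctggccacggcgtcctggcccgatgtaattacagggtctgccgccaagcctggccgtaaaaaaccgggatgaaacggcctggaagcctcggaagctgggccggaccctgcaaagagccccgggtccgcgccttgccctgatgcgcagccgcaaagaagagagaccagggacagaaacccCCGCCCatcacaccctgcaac
Sema4c start A: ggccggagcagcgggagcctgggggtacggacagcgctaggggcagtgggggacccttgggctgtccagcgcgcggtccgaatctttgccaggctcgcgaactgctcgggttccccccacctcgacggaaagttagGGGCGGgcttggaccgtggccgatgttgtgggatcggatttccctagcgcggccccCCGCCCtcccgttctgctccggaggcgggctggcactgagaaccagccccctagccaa
Sema4c start B: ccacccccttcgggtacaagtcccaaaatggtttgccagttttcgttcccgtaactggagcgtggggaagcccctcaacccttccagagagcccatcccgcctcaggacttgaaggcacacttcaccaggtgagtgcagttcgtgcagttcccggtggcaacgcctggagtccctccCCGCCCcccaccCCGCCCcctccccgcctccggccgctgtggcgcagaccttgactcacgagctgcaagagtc
These windows lie at chr16:63864176-63864425 for Epha3, at chr3:89279646-89279895 and chr3:89280952-89281201 for Efna1, and at chr1:36557558-36557807 and chr1:36558382-36558631 for Sema4c. A GC box was found 0 times before Epha3, 2 times before Efna1 start A, 1 time before Efna1 start B and 2 times before each Sema4c start. It occurs, on either strand, in 32.7% of 32851 mouse promoter windows of the same length. None of the 5 windows holds the letters TATAAA on either strand, which are present in 12.4% of all windows. CpG dinucleotides numbered between 15 and 23 in these windows, against a median of 6 over all promoters. A match or a missing match describes these letters only.

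In the deposited tables the whole Efna1 level lay on the transcript that begins at start A (4.78 and 5.12 FPKM in the proximal pair, 1.478 and 1.001 FPKM in the distal pair). The transcript from start B was listed at 0 in all 4 libraries. Sema4c was read from both starts. Start A gave 25.76 and 45.5 FPKM in the proximal pair and 42.4 and 47.2 FPKM in the distal pair. Start B gave 19.3 and 20.02 FPKM in the proximal pair and 41.1 and 27.8 FPKM in the distal pair, so the regions overlapped at start A and not at start B. The 3 deposited Epha3 transcripts share 1 start, 18 bp from the RefSeq one.

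The filter for testing, 1 FPKM or more in 2 of the 4 libraries, was met by 41 of the 67 genes. Another 22 genes stayed under 1 FPKM in every library, and 4 genes reached it in 1 library. The 10 highest levels, by the mean over the 4 libraries, were those of Sema4c (67.25 FPKM), Ntn4 (66.07 FPKM), Sema5a (63.35 FPKM), Nrp1 (58.35 FPKM), Efnb1 (40.9 FPKM), Robo2 (37.11 FPKM), Sema3c (30.17 FPKM), Slit3 (26.5 FPKM), Plxnb2 (19.86 FPKM) and Efnb2 (11.7 FPKM). Sema4c stood at or above 91.5% of all tested genes. Each gene in that order overlapped the next over the 4 libraries, except Plxnb2 and Efnb2, and the order was given no test. These levels sum all transcripts of a gene. For Sema5a and Nrp1, 51.1% and 24.8% of the level lay on a transcript whose nearest annotated match has no coding sequence.

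**Figure D1:**
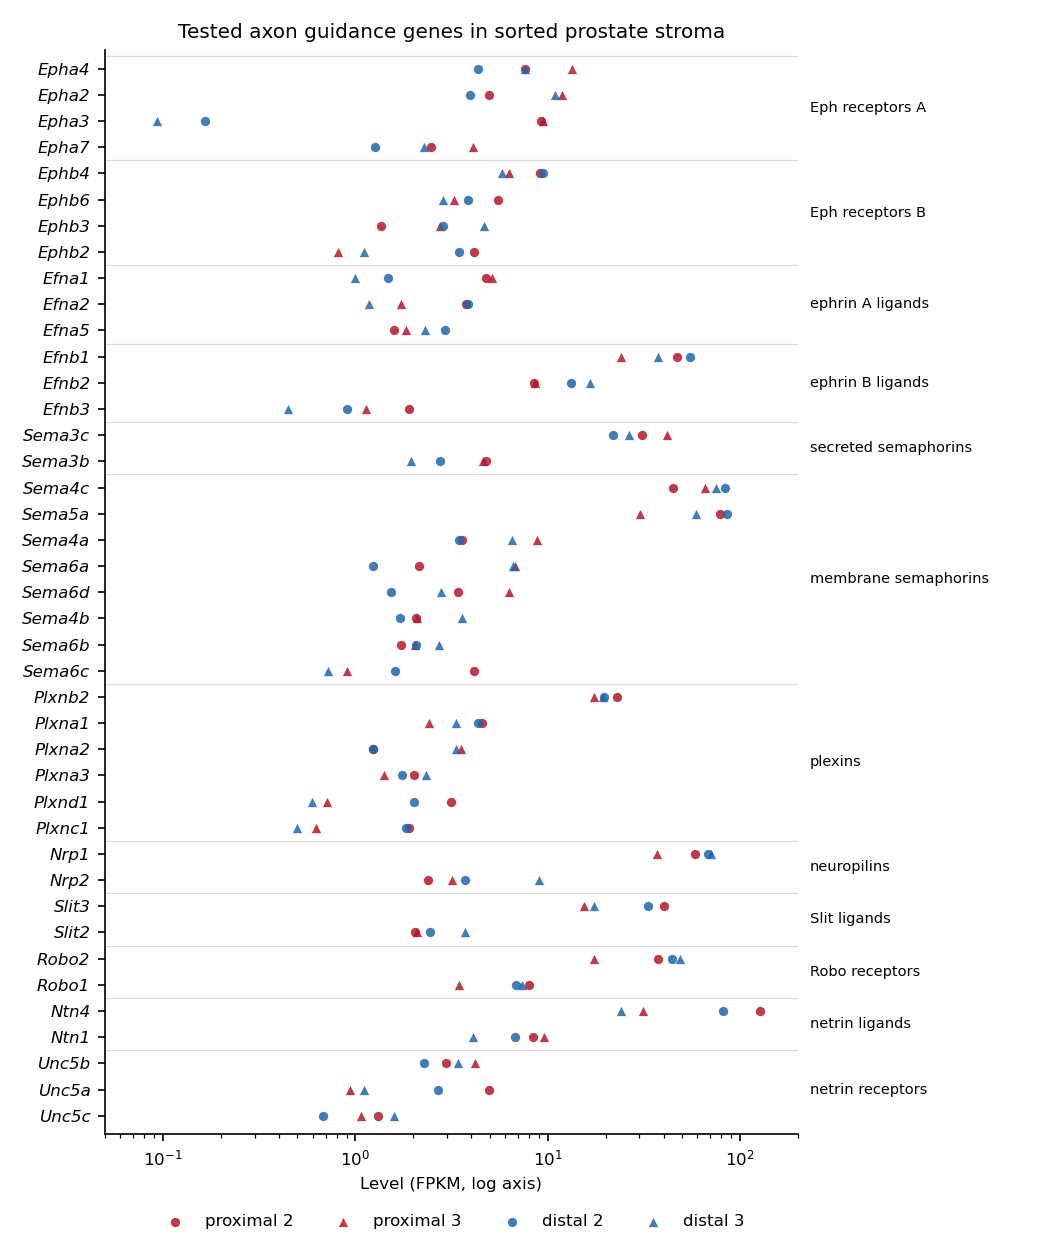
Level in FPKM (log axis) of the 41 tested genes in each library, grouped by role; red marks proximal, blue distal, circles libraries numbered 2 and triangles those numbered 3. Epha3 is the gene whose regions lie furthest apart, at 9.20 and 9.48 FPKM in the proximal pair and 0.165 and 0.0933 FPKM in the distal pair.

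None of the 41 tested genes passed the comparison of proximal with distal stroma (limma on log2(FPKM + 1), two-sided, Benjamini-Hochberg over 11271 genes, threshold 0.05). The same test called 0.0% of all genes higher and 0.0% lower in proximal stroma, so a count of 0 is also the background. At an unadjusted p under 0.05 there were 2 of the 41, against 3.16% of all genes. With 2 libraries a side, an exact two-sided permutation p is at least 0.333. The proximal pair lay wholly above the distal pair for 9 of the 41 genes (22.0%), against 12.9% of all genes. It lay wholly below for another 9 (22.0%), against 8.64% of all genes, and the regions overlapped for 23. After quantile normalization 6 members lay above (14.6%, against 11.9% of all genes) and 6 below (14.6%, against 13.2%). After median ratio scaling 6 lay above (14.6%, against 13.8%) and 7 below (17.1%, against 11.1%). Under that scaling the regions overlapped for Epha4, Epha7, Ephb3, Sema3c, Sema6b, Sema6d, Nrp2 and Slit2, which separated as deposited. Ephb6, Efnb1 and Sema5a overlapped as deposited and separated under that scaling. Below, separation and overlap refer to values as deposited. Of the 18 genes that separated as deposited, Epha3 had an adjusted p of 0.322 and the other 17 one of 0.99991 (limma). The median log2 difference, proximal minus distal, was 0.07 over the 41 genes and 0.09 over all genes. Quantile normalization moved the median of all genes by -0.12, and 7 small differences changed sign under it or under median ratio scaling. Those were the differences of Ephb4, Efna2, Plxna2, Plxnb2, Plxnc1, Slit3 and Unc5c, and for none of these genes is a regional direction given below. Proximal 3, the library with the highest epithelial sum, was also the highest library for 7 of the 9 genes with higher proximal values (Epha3, Epha4, Epha7, Efna1, Sema3c, Sema6d and Ntn1). It was the lowest library for 2 of the 9 with lower proximal values (Nrp1 and Robo2), and the part of epithelial RNA in these values was not tested. In both groups that extreme library is proximal 2 or proximal 3 by definition, and the same share over all genes was not counted. For the 7 genes highest in proximal 3, proximal 2 stood at between 0.539 times (Sema6d) and 0.97 times (Epha3) the proximal 3 level. The epithelial sums were 74.02 FPKM in proximal 2 and 525.0 FPKM in proximal 3.

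**Figure D2:**
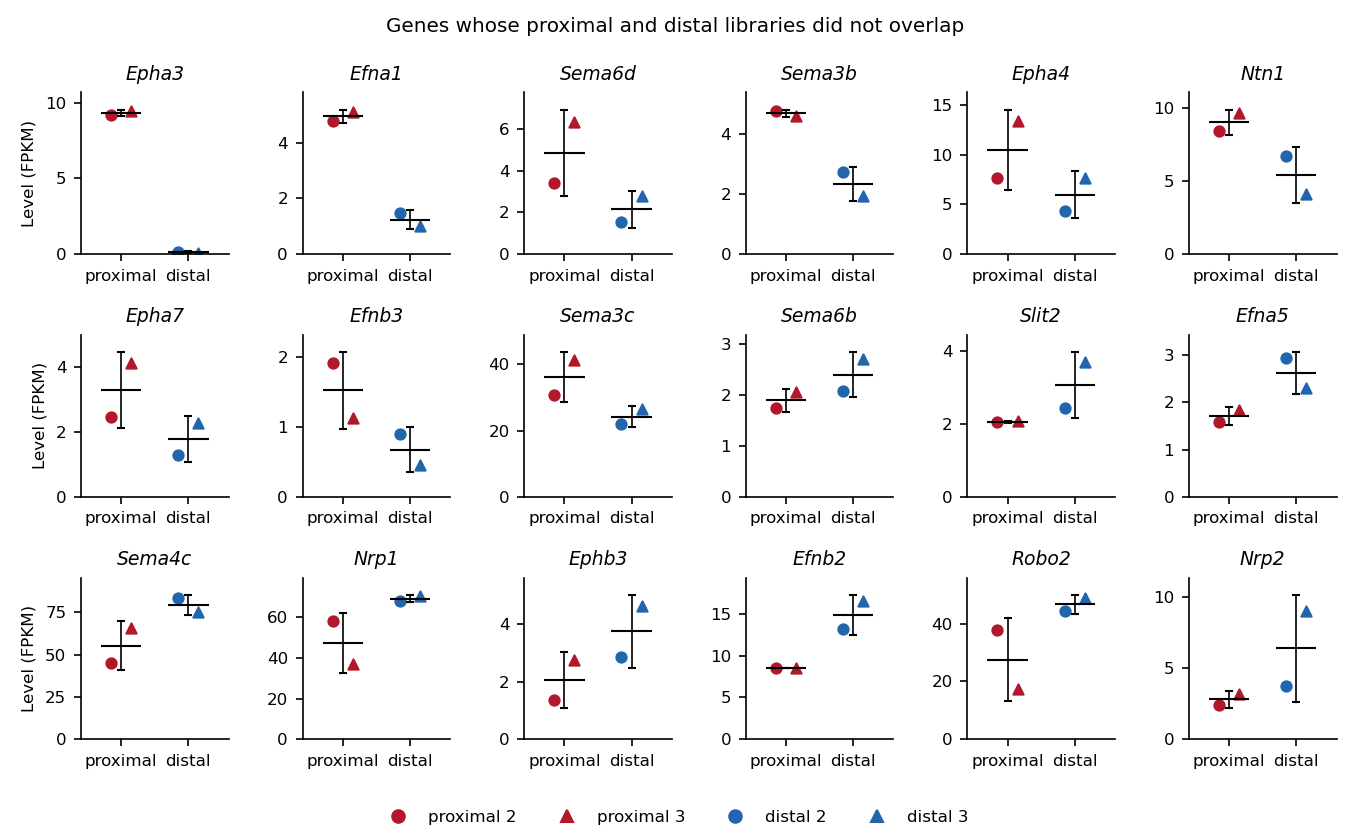
Level in FPKM (linear axis from 0) of the 18 genes whose proximal libraries both lay above or both lay below the distal libraries; points are libraries, horizontal lines are means and whiskers the SD of 2 libraries. Epha3 has the largest log2 difference, 3.20, and Nrp2 the lowest, -0.87.

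Among A-type Eph receptors, Epha3 was read almost entirely in proximal stroma. Epha3, a receptor with high affinity for ephrin A5, stood at 9.20 and 9.48 FPKM in the proximal pair, against 0.165 and 0.0933 FPKM in the distal pair. The means were 9.34 ± 0.200 FPKM over the proximal pair and 0.129 ± 0.0507 FPKM over the distal pair (SD, 2 libraries a side), a ratio of 72.3, and the log2 difference was 3.20 ± 0.39 (SE). Both proximal values were close to each other and far above both distal ones. The lower bounds that the authors deposited for its main transcript were 8.49 and 8.77 FPKM in the proximal pair, against upper bounds of 0.244 and 0.0952 FPKM in the distal pair. Its gene spans chr16:63543534-63864175 on the minus strand (mm10, GENCODE M21).

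The other 3 tested A-type receptors also had positive differences, each much smaller. Epha4, which binds ephrins of both types, stood at 7.63 and 13.3 FPKM in the proximal pair, against 4.32 and 7.63 FPKM in the distal pair. The log2 difference was 0.71 ± 0.49 (SE), and it was 1.08 without proximal 2, 0.35 without proximal 3 and 0.37 without distal 2. Epha7 stood at 2.47 and 4.11 FPKM in the proximal pair, against 1.27 and 2.27 FPKM in the distal pair, a log2 difference of 0.63 ± 0.45 (SE). That of Epha7 was 0.35 without proximal 3, 0.36 without distal 2 and 0.38 with its highest transcript alone. Neither regional gap is wide, since proximal 2 and distal 3 nearly meet for Epha4 (7.632 and 7.631 FPKM) and Epha7 (2.466 and 2.269 FPKM). Epha2, a main receptor of ephrin A1, overlapped between regions at 4.95 and 11.9 FPKM in the proximal pair and 3.94 and 10.9 FPKM in the distal pair. It followed the library number instead, higher in both libraries numbered 3. The remaining 5, Epha1, Epha5, Epha6, Epha8 and Epha10, stayed at or under 0.288 FPKM.

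Of the B-type Eph receptors, Ephb3 alone separated by region as deposited, in the other direction. Ephb3, known for positioning cells in intestinal crypts, stood at 1.36 and 2.76 FPKM in the proximal pair, against 2.85 and 4.65 FPKM in the distal pair. Proximal minus distal, this is a log2 difference of -0.65 ± 0.47 (SE), which was -0.31 without proximal 2, -0.98 without proximal 3 and -0.37 without distal 3. Ephb4, the venous receptor of ephrin B2, had the highest level of its class at 9.15 and 6.27 FPKM in the proximal pair and 9.45 and 5.76 FPKM in the distal pair. Ephb6, whose kinase domain is inactive, stood at 5.50 and 3.27 FPKM in the proximal pair and 3.86 and 2.85 FPKM in the distal pair, and Ephb2 at 4.16 and 0.810 FPKM in the proximal pair and 3.48 and 1.11 FPKM in the distal pair. These 3 overlapped between regions and were higher in both libraries numbered 2, while Ephb1 stayed at or under 0.0338 FPKM.

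Ephrin A1 was the ligand with the largest positive difference. Efna1 stood at 4.78 and 5.12 FPKM in the proximal pair, against 1.478 and 1.001 FPKM in the distal pair. The means were 4.95 ± 0.237 FPKM over the proximal pair and 1.24 ± 0.337 FPKM over the distal pair (SD, 2 libraries a side), a ratio of 3.99, and the log2 difference was 1.42 ± 0.40 (SE). Efna1 spans chr3:89271733-89281142 on the minus strand. Proximal values again lay close together, and the deposited bounds of its only expressed transcript did not meet between regions. Efna5 pointed the other way, at 1.58 and 1.84 FPKM in the proximal pair, against 2.93 and 2.31 FPKM in the distal pair. The log2 difference of Efna5 was -0.42 ± 0.39 (SE), little more than its error. Efna2 overlapped between regions (3.77 and 1.73 FPKM in the proximal pair, 3.87 and 1.18 FPKM in the distal pair). Efna3 reached 1 FPKM in proximal 3 alone (1.87 FPKM) and was not tested, and Efna4 was listed at 0 throughout.

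B-type ephrins held the highest ephrin levels. Efnb1 stood at 47.1 and 23.99 FPKM in the proximal pair and 55.1 and 37.5 FPKM in the distal pair, with overlapping regions and a log2 difference of -0.42 ± 0.45 (SE). Efnb2, the arterial ligand of Ephb4, stood at 8.50 and 8.55 FPKM in the proximal pair, against 13.2 and 16.6 FPKM in the distal pair. Its log2 difference was -0.73 ± 0.37 (SE), and the deposited bounds did not meet between regions. Efnb3 was low in every library, at 1.91 and 1.13 FPKM in the proximal pair against 0.903 and 0.448 FPKM in the distal pair, a log2 difference of 0.59 ± 0.40 (SE). It was 0.36 without proximal 2, 0.39 without distal 3 and 0.37 after quantile normalization.

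Of the 7 secreted semaphorins, 2 were tested and both separated by region as deposited, with higher proximal values. Under median ratio scaling the regions overlapped for Sema3c. Sema3c (chr5:17574281-17730268, plus strand), a cue for neural crest and vessel patterning, had the highest level of the class at 30.8 and 41.5 FPKM in the proximal pair, against 21.9 and 26.5 FPKM in the distal pair. The log2 difference was 0.55 ± 0.35 (SE), and 0.34 without proximal 3. Sema3b stood at 4.775 and 4.60 FPKM in the proximal pair, against 2.74 and 1.94 FPKM in the distal pair, a log2 difference of 0.78 ± 0.41 (SE), or 0.50 with the highest transcript alone. Other class 3 genes were near the detection end of the scale. Sema3e, a ligand that plexin D1 can bind without a neuropilin, stood at 0.204 and 0.260 FPKM in the proximal pair, against 0.991 and 1.86 FPKM in the distal pair. It missed the filter because 1 library alone reached 1 FPKM, and with no filter its log2 difference was -0.95 ± 0.26 (SE; adjusted p = 0.828, limma). Sema3f, also untested, stood at 1.20 and 0.670 FPKM in the proximal pair and 0.459 and 0.185 FPKM in the distal pair. Sema3a, Sema3d and Sema3g did not exceed 0.6555 FPKM.

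Membrane semaphorins were led by Sema4c and Sema5a. Sema4c, a ligand of plexin B2, stood at 45.02 and 65.5 FPKM in the proximal pair, against 83.5 and 74.96 FPKM in the distal pair. Proximal minus distal, this is a log2 difference of -0.53 ± 0.34 (SE), which was -0.27 without proximal 2 and -0.80 without proximal 3. Sema5a, which carries thrombospondin repeats, overlapped at 78.3 and 30.04 FPKM in the proximal pair and 85.9 and 59.2 FPKM in the distal pair, lowest in proximal 3. Sema6d, a ligand of plexin A1, stood at 3.40 and 6.31 FPKM in the proximal pair, against 1.53 and 2.78 FPKM in the distal pair. The log2 difference of Sema6d was 0.88 ± 0.49 (SE), and within each library number the proximal value was at least 2.23 times the distal one. The difference was 0.51 without proximal 3, 0.58 without distal 2 and 0.51 with the highest transcript alone. Sema6b was nearly level, at 1.74 and 2.06 FPKM in the proximal pair and 2.08 and 2.71 FPKM in the distal pair, a log2 difference of -0.23 ± 0.39 (SE). Without 1 library at a time that of Sema6b lay between -0.09 (without distal 3) and -0.36 (without distal 2), with -0.15 without proximal 2, and it was -0.42 after quantile normalization. Sema4a, Sema4b, Sema6a and Sema6c overlapped between regions at levels between 0.720 FPKM (Sema6c, distal 3) and 8.78 FPKM (Sema4a, proximal 3). Sema7a reached 1 FPKM in distal 3 alone (1.18 FPKM), and Sema4d, Sema4f, Sema4g and Sema5b stayed at or under 0.266 FPKM.

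Among the receptors of these semaphorins, 6 of 9 plexins were tested, and in all 6 the regions overlapped. Both neuropilins separated as deposited, with lower proximal values, without passing the test. Under median ratio scaling the regions overlapped for Nrp2. Plxnb2, the receptor of Sema4c and the highest plexin, stood at 22.98 and 17.46 FPKM in the proximal pair and 19.6 and 19.4 FPKM in the distal pair. Plxnd1, a vascular receptor of Sema3e, stood at 3.15 and 0.714 FPKM in the proximal pair and 2.02 and 0.596 FPKM in the distal pair, so it was higher in number 2 of both regions. Plxna1, Plxna2, Plxna3 and Plxnc1 lay between 0.498 FPKM (Plxnc1, distal 3) and 4.57 FPKM (Plxna1, proximal 2). The untested plexins were low. Plxnb1 had 0.668 and 0.6755 FPKM in the proximal pair, against 0.235 and 0.333 FPKM in the distal pair, and Plxna4 had 0.0693 and 0.0363 FPKM in the proximal pair, against 0.1538 and 0.1496 FPKM in the distal pair. Both thus separated by region under the filter, in opposite directions, and Plxnb3 did not exceed 0.108 FPKM. Nrp1, a co-receptor for class 3 semaphorins and for VEGF, stood at 58.01 and 36.95 FPKM in the proximal pair, against 67.9 and 70.5 FPKM in the distal pair. Its log2 difference was -0.57 ± 0.36 (SE), but -0.31 with the highest transcript alone and -2.36 under strict naming (span and length score alone), which leaves out its longest form. Nrp2 stood at 2.39 and 3.20 FPKM in the proximal pair, against 3.72 and 9.03 FPKM in the distal pair, a log2 difference of -0.87 ± 0.53 (SE). Each neuropilin difference rested largely on 1 library: without proximal 3 that of Nrp1 was -0.25 (-0.89 without proximal 2), and without distal 3 that of Nrp2 was -0.32 (-1.41 without distal 2). Nrp1 spans chr8:128358604-128503363 on the plus strand.

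Of the Slit and Robo genes, Slit3 and Robo2 had the highest levels. Slit3 overlapped between regions, at 40.1 and 15.5 FPKM in the proximal pair and 33.04 and 17.4 FPKM in the distal pair. Slit2 had a lower level, at 2.04 and 2.08 FPKM in the proximal pair and 2.43 and 3.70 FPKM in the distal pair, a log2 difference of -0.39 ± 0.41 (SE). Slit2 thus differed by less than its error, although the regions did not overlap as deposited. The difference was -0.16 without distal 3 and -0.62 without distal 2. Robo2 stood at 37.6 and 17.45 FPKM in the proximal pair, against 44.4 and 48.98 FPKM in the distal pair. The log2 difference was -0.83 ± 0.45 (SE), made up of -0.23 within number 2 and -1.44 within number 3. Proximal 3 was thus the library in which Robo2 stood apart, and without it the log2 difference was -0.30 (-1.37 without proximal 2), while the median of all genes moved to 0.29. Robo2 spans chr16:73891839-74411825 on the minus strand. Robo1 was likewise lowest in proximal 3, at 8.01 and 3.46 FPKM in the proximal pair and 6.82 and 7.36 FPKM in the distal pair. Slit1, Robo3 and the endothelial receptor Robo4 did not exceed 0.0748 FPKM.

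Netrins were read mainly as Ntn4, a netrin of basement membranes that binds laminin. Ntn4 stood at 127.5 and 31.4 FPKM in the proximal pair and 81.4 and 23.98 FPKM in the distal pair. The libraries numbered 2 exceeded those numbered 3 by 4.06 times in proximal and 3.40 times in distal stroma, and the region difference of 0.51 ± 0.87 (SE, log2) was within that spread. Within each number the proximal value was the higher, at 1.57 times the distal one for number 2 and 1.31 times for number 3. Ntn1, the classical axon attractant, separated by region at 8.39 and 9.62 FPKM in the proximal pair, against 6.74 and 4.08 FPKM in the distal pair. Proximal minus distal, this is a log2 difference of 0.67 ± 0.43 (SE), and its deposited bounds did not meet between regions. Without distal 3 the log2 difference of Ntn1 was 0.37. Of the netrin receptors, Dcc did not exceed 0.00707 FPKM and Unc5d did not exceed 0.0435 FPKM. Unc5a, Unc5b and Unc5c overlapped between regions at levels between 0.682 FPKM (Unc5c, distal 2) and 4.93 FPKM (Unc5a, proximal 2).

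**Figure D3:**
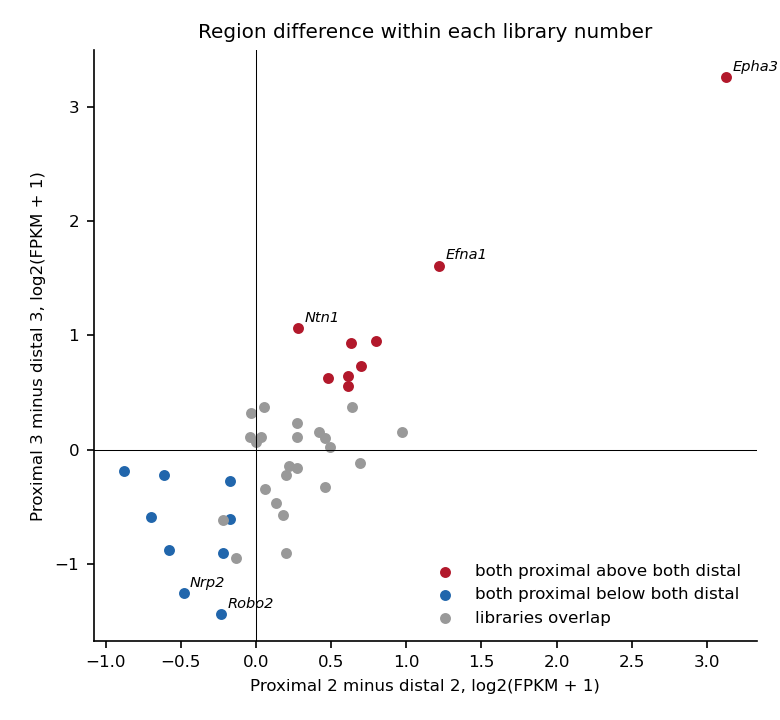
Difference of proximal minus distal in log2(FPKM + 1) within library number 2 (x axis) and within library number 3 (y axis) for the 41 tested genes. Epha3 (3.13 and 3.26) and Efna1 (1.22 and 1.61) lie at the upper right, and Robo2 (-0.23 and -1.44) at the lower left.

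Within both library numbers the proximal value was at least 2 times the distal value for 4 of the 41 genes, against 3.26% of all genes. These were Epha3, Efna1, Sema6d and Efnb3, with values as deposited. Efnb3, at 2.11 times within number 2, fell under 2-fold there after median ratio scaling. A proximal value at least 2-fold lower in both numbers was found for 0 of the 41 genes, against 1.16% of all genes. Both libraries numbered 2 lay above both numbered 3 for 14 of the 41 (34.1%), against 50.4% of all genes, and below for 6 (14.6%), against 20.2% of all genes. No label says what the numbers mark. The deposited bounds of the main transcript did not meet between regions for 6 of the 18 genes that separated, Epha3, Efna1, Efnb2, Sema3c, Nrp1 and Ntn1. These bounds cover the estimate within a library and not the spread between libraries.

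**Figure D4:**
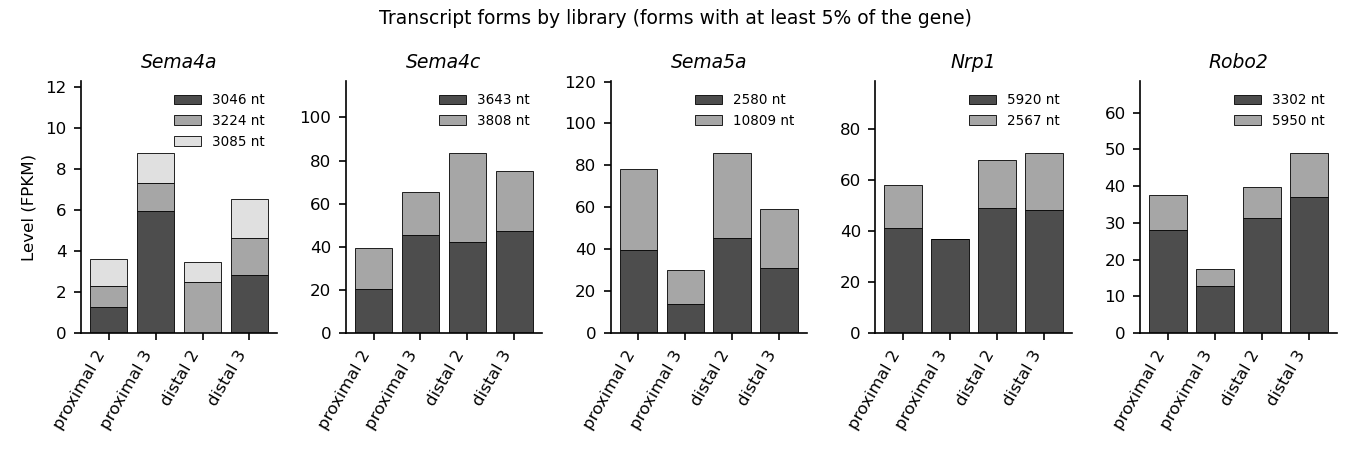
Level in FPKM (linear axis from 0) of transcript forms of 5 genes in each library, stacked, for forms with at least 5% of the gene over the 4 libraries, with the length of each form in nucleotides. The 2567 nt form of Nrp1 is listed at 0 in proximal 3 and lies between 16.7 and 22.2 FPKM in the other libraries.

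For 5 genes with a mean of at least 5 FPKM a second transcript form held at least 20% of the level. The software divides fragments among overlapping forms, so these shares are estimates. Nrp1 was split between a 5920 nt form, at 41.3 and 36.95 FPKM in the proximal pair and 48.9 and 48.4 FPKM in the distal pair, and a 2567 nt form that ends earlier in the gene. The short form stood at 16.7 FPKM and was listed at 0 in the proximal pair, against 19.0 and 22.2 FPKM in the distal pair. In the long form taken alone the proximal values also lay below the distal ones. Sema5a divided almost evenly, the 2580 nt form holding 50.8% and 45.8% of the level in the proximal pair and 52.5% and 52.3% in the distal pair. Its nearest annotated transcript (Sema5a-208) is a retained-intron form with no coding sequence, and the 10809 nt form matches the coding transcript. Robo2 was split between a 3302 nt form, with 74.7% and 74.0% of the level in the proximal pair and 70.4% and 75.4% in the distal pair, and a 5950 nt form that begins further downstream. The shares of Sema4a forms varied most, the 3046 nt form holding 35.8% and 68.0% of the level in the proximal pair and 0.0% and 43.1% in the distal pair. Sema4c, the fifth, was divided by start site as described with its promoters.

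Other genes of the pathway gave no call either. Of 17 further guidance cues and receptors 9 were tested, 0 passed in either direction and in 0 did the regions separate, with a median log2 difference of 0.11. All 9 differences were positive as deposited, against 60.4% of all genes. Under quantile normalization 5 of the 9 were positive, against 46.8% of all genes. Neo1, a netrin and repulsive guidance molecule receptor, stood at 30.9 and 15.8 FPKM in the proximal pair and 16.98 and 11.7 FPKM in the distal pair, a log2 difference of 0.62 ± 0.47 (SE). Flrt2, a ligand of Unc5 receptors, stood at 17.8 and 36.2 FPKM in the proximal pair and 14.4 and 23.65 FPKM in the distal pair, a log2 difference of 0.44 ± 0.49 (SE). Rgma and Nrcam had log2 differences of 0.28 ± 0.50 and 0.13 ± 0.41 (SE). Of 48 signal transducers 41 were tested and 0 passed in either direction, with a median of -0.16. Positive differences numbered 13 of these 41 as deposited (31.7%) and 11 under quantile normalization. The proximal pair lay wholly below the distal pair for 8 of these and above for 2, against 8.64% and 12.9% of all genes. Crmp1, a mediator of semaphorin 3A signalling to the cytoskeleton, stood at 9.44 and 3.20 FPKM in the proximal pair, against 26.8 and 17.2 FPKM in the distal pair. The log2 difference of Crmp1 was -1.77 ± 0.57 (SE). Limk1, a kinase that inactivates cofilin, stood at 8.80 and 6.91 FPKM in the proximal pair, against 22.7 and 15.2 FPKM in the distal pair, a log2 difference of -1.16 ± 0.40 (SE). Fyn, a Src family kinase downstream of Eph receptors and plexins, stood at 24.1 and 16.8 FPKM in the proximal pair and 41.6 and 27.2 FPKM in the distal pair, a log2 difference of -0.71 ± 0.40 (SE). Rgs3, a regulator of G protein signalling, stood at 13.8 and 9.03 FPKM in the proximal pair and 7.43 and 5.13 FPKM in the distal pair, a log2 difference of 0.76 ± 0.44 (SE).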

How the data were processed

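FPKM per transcript was estimated by the authors and deposited for 63241 UCSC transcripts per library, with estimation bounds and a per-transcript coverage signal. The submitters' processing notes name mm10, bcl2fastq 1.8.3, TopHat2 0.6 and Cufflinks 0.0.6, and per the labels cDNA was made with random and oligo(dT) priming, which does not mark strand. The number of fragments per library was not used here and depth is unknown. The median coverage per FPKM, as deposited, was 5.22, 5.38, 5.68 and 6.34 in proximal 2, proximal 3, distal 2 and distal 3, and it was used for nothing else.

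Gene names came from the positions of transcripts in GENCODE M21 (55609 named, holding 96.34% of FPKM), and FPKM was summed per gene. A match needed a span and length score of 0.8, with any other gene under 0.8 of that score. Failing that, it needed ends within 100 bp of exons of 1 gene, or a span overlap of 0.5 with any other gene under 0.25. A further 7 genes with failed or capped estimates were left out, none of them a guidance gene. An exact 0 may be a failed estimate. Genes at 1 FPKM or more in at least 2 libraries (11271) were fitted as log2(FPKM + 1) with limma 3.58.1 in R 4.3.3, region as the only term, with a mean trend. Fold changes on that scale understate the change of low genes. No count test was run.

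The members, lists and tests were chosen with earlier results of these data known. Named genes are tested members with regions that do not overlap and at least 1 FPKM in the higher region, the 10 with the highest mean, and up to 4 per further pathway list by unadjusted p. Sema3e, Sema3f and the members whose regions overlap are described so that every member is accounted for. Alternatives covered the pseudocount, the filter, scaling, trend, transcript choice, naming, a replicate block and leaving out each library. The remaining steps used pandas 2.3.3, numpy 2.4.6 and matplotlib 3.10.9 under Python 3.11.15. Promoters are from RefSeq (GRCm38.p6).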

Additional observations from a re-analysis of the deposited data

How the results depend on the processing

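All 18 genes with values that separate by region as deposited held their sign in every alternative in which they were tested. Not all of them stayed separate after rescaling, as given above. Strict naming gave no value for Epha3, Efna5 and Sema6b, nor the 5 FPKM minimum for 10 of the 18. The log2 difference of Epha3 ranged from 1.48 (pseudocount 5) to 5.38 (pseudocount 0.1), and its adjusted p without a block from 0.134 to 1.0 (limma). With 0 called genes in the comparison as reported, a fit with the replicate number as a block called 313 genes (2.78%) higher and 151 (1.34%) lower in proximal stroma, among them 2 guidance genes, Epha3 (adjusted p = 0.000923) and Efna1 (adjusted p = 0.0158), and 0 lower. Deviations from the region means correlated at 0.815 across genes between libraries of the same number. Levels correlated at 0.952 between the regions within each number, against 0.869 between the 2 proximal and 0.911 between the 2 distal libraries. Libraries of the same number thus resembled each other more than libraries of the same region. There are only 2 pairs, and no label ties a number to an animal or a day, so what the numbers mark is unknown. The median log2 difference of the tested members, 0.07 as reported, was 0.16 with a pseudocount of 0.1, -0.05 after quantile normalization, 0.0 after median ratio scaling and 0.13 with the highest transcript per gene. A minimum of 5 FPKM left 18 members, 4 of them with the proximal pair above (beside 858 of 7802 genes) and 4 with it below the distal pair (beside 768 of 7802), because fewer genes were tested. Leaving out each library in turn (the lone library is assumed to vary like the other pair) gave 0 to 36 genes called higher and 0 to 5 lower, 0 of them members. It gave 14 to 20 members above (all genes 20.7% to 53.1%), 10 to 18 below (all genes 20.3% to 30.1%) and a member median between -0.21 and 0.21, beside -0.06 to 0.29 over all genes. Of the 18 differences, 5 to 7 moved by over 1.5 times with each library left out, 12 with a pseudocount of 5, 2 with 0.1, 2 after quantile normalization, 4 with the highest transcript and 1 under strict naming. The calls came without distal 2 (36 higher, 4 lower) and without distal 3 (21 higher, 5 lower), and 0 genes were called without either proximal library. Depth is unknown, so low levels cannot be given a counting limit.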
